A study of Homo sapiens with 8 samples.

Results

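The BEX2-knockdown sublines of HuCCT1, an established human cholangiocarcinoma cell line, were compared with each other at the level of RNA. The comparison used the 2 arrays labelled shBEX2-1 and the 2 arrays labelled shBEX2-2, which are 4 of the 8 arrays of the series. The other 4 arrays, 2 of HuCCT1 cells with the vector shControl and 2 with the vector shNontarget, carry the label of control cells and served only to show where each subline lay. Both sublines were made to lower BEX2, and per the study's methods the short hairpin RNAs were expressed from a retroviral vector. As the methods print them, the second hairpin target is nearly the reverse complement of the first, and which target belongs to which subline is not stated. The labels give no time after transfer of the vector, and do not say whether a subline is 1 clone or whether the arrays of a subline came from separate cultures. The p-values below therefore measure only the spread between these arrays, which may be technical.

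BEX2 belongs to a small family of X-linked proteins, the BEX and TCEAL genes, and was studied in these cells as a factor of the resting state of cancer stem cells. A knockdown is usually made with more than 1 hairpin, because each vector, integration and line of descent can carry differences of its own that have nothing to do with the target. Genes that differ between both knockdown sublines show how far they depart from each other, whichever of these is the source.

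HuCCT1 RNA labelled with Cy3 had been hybridized to single-colour Agilent arrays. Of the 58717 non-control spots, 60.8% to 63.9% were well above background on these 4 arrays, and no spot was saturated. Each array was scaled by its 75th percentile, an intensity of 441 and 514 on the shBEX2-1 arrays and 618 and 631 on the shBEX2-2 arrays. Levels below are log2 intensities relative to that percentile, and a difference is the shBEX2-1 mean minus the shBEX2-2 mean. The arrays lay on 1 slide in 1 scan, shBEX2-1 in columns 1 and 2 and shBEX2-2 in columns 3 and 4 of slide row 2. Slide position and subline therefore cannot be told apart. The control arrays lay in slide row 1, so that row and knockdown cannot be told apart in any placement of a subline against the controls. A gap of more than 1 on the log2 scale between the replicates of a vector was found for 1.83% of genes in shBEX2-1, 0.616% in shBEX2-2, 2.01% in shControl and 35.0% in shNontarget cells.

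The cells carried the markers of their label. Of 21 markers of biliary epithelium, 18 were well above background on all 4 arrays, among them the keratins KRT7 and KRT19, and SPP1, TFF3 and ONECUT1 were so on none. The summed linear level of the list, in units of the array's 75th percentile, was 1066 to 1107 in shBEX2-1 and 941 to 948 in shBEX2-2 cells. KRT7 was higher in shBEX2-1 by 0.38 (standard error 0.08, adjusted p = 0.0260 from limma), but by 0.12 (adjusted p = 0.274 from limma) after quantile normalization, and the call was also lost without either shBEX2-2 array (adjusted p of up to 0.295). Of 14 hepatocyte markers 8 were well above background on none of the 4 arrays, including albumin, and 3 on all 4 (CPS1, ASGR1 and TAT). Of the 4 that could be tested CPS1 alone was called, higher in shBEX2-1 by 1.48 (standard error 0.17, adjusted p = 0.00352 from limma). Of 12 fibroblast markers 5 were well above background on all 4 arrays (COL1A1, ACTA2, POSTN, LUM and COL5A2) and 6 on none, including COL1A2, COL3A1, PDGFRA and THY1, and the summed level of the list was 3.52 to 3.83 in shBEX2-1 and 2.00 to 2.02 in shBEX2-2 cells. Of 15 leukocyte and endothelial markers on the array 7 were so on all 4, including PTPRC, CD14, CD68 and CSF1R, and 6 on none, including PECAM1 and KDR, and that sum was 1.72 to 1.76 in shBEX2-1 and 2.27 to 2.32 in shBEX2-2 cells.

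The sublines differed widely. Of 20790 genes tested, 2722 (13.1%) passed an adjusted p of 0.05 by limma with Benjamini-Hochberg adjustment, 1353 (6.51%) higher in shBEX2-1 and 1369 (6.58%) lower. Most of these differences were small, with a median size of 0.56 on the log2 scale, and 413 called genes differed by at least 1, of which 228 were higher and 185 lower in shBEX2-1 cells. By at least 2 there were 41 higher and 20 lower. All 2722 called genes had arrays that did not overlap between the sublines, as did 59.9% of all genes tested, so that the lack of overlap alone says little with 2 arrays a side, where an exact permutation test cannot go below 0.333. The count fell to 498 without shBEX2-2 replicate 1 and to 383 without shBEX2-2 replicate 2, and was 3423 and 5568 without the replicate 1 or 2 array of shBEX2-1. When all 8 arrays shared 1 estimate of the spread, which the shNontarget arrays widen, 2 genes passed. The balance of directions rested on the scaling, with 1043 higher and 1782 lower when each array's median replaced its 75th percentile, and 2870 higher and 1503 lower after normexp background correction.

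**Figure D1:**
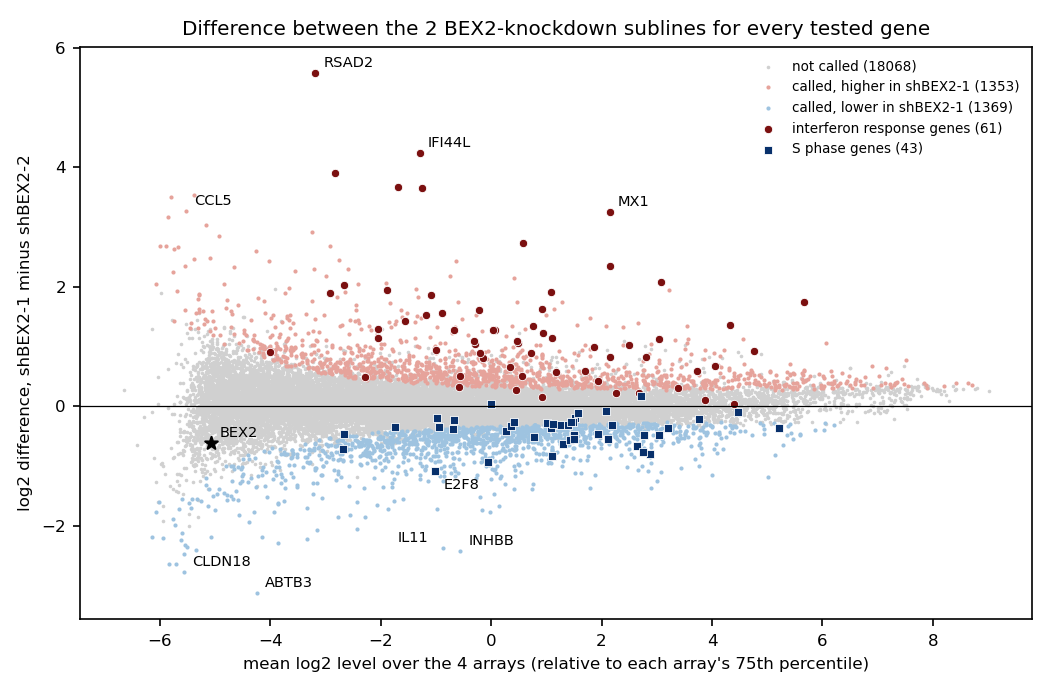
Log2 difference between the sublines (shBEX2-1 minus shBEX2-2) against the mean log2 level over the 4 arrays, 1 point per gene. Interferon-response genes (dark red circles) all lie above 0 and reach 5.58 at RSAD2, S phase genes (dark blue squares) lie mostly below 0, and BEX2 (star) lies at -0.61 among genes that were not called.

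BEX2 itself was not shown to differ between the sublines. Its probe (A_33_P3245178, chromosome X of hg19, 102564430 to 102564489) gave intensities of 11.9 and 11.1 in shBEX2-1 cells, neither well above background, and of 20.4 and 26.0 in shBEX2-2 cells, both well above it. On the normalized log2 scale these were -5.21 and -5.54 against -4.92 and -4.60, and the control arrays lay higher, from -3.91 to -2.70. The difference was -0.61 (standard error 0.30, 95% interval -1.31 to 0.08, adjusted p = 0.211 from limma). After normexp correction the sign turned, to 0.12 (adjusted p = 0.436 from limma), so that no direction can be given.

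Among relatives of BEX2, 10 of the 14 listed BEX and TCEAL genes could be tested, and 2 were higher and 1 was lower in shBEX2-1. Over all genes tested, 6.51% were called higher and 6.58% lower. BEX1 and BEX4 were well above background on none of the 4 arrays. BEX5 had levels of -1.63 and -1.70 in shBEX2-1 and of -2.22 and -2.07 in shBEX2-2 cells, a difference of 0.48 (standard error 0.12, adjusted p = 0.0366 from limma). That call was lost without either shBEX2-2 array (adjusted p of up to 0.234 from limma) and with scaling by the median (adjusted p = 0.0508). TCEAL8 was higher by 0.37 and TCEAL9, named WBP5 on the array, differed by -0.52, and both calls were lost without either shBEX2-2 array (adjusted p of up to 0.280 and 0.214). TCEAL8 also lost the call with scaling by the median (adjusted p = 0.0525).

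The largest differences lay in the interferon response. Interferons bind receptors that act through JAK kinases and a transcription factor complex that holds IRF9, and this complex switches on a set of antiviral genes from a short promoter element, the interferon-stimulated response element. Of the 61 tested genes of a 62-gene interferon list, 50 were called higher in shBEX2-1 cells and none lower, and all 61 differences were above 0, so that none was lower at an unadjusted p of 0.05 either. Over all genes tested, 6.51% were called higher. The median difference of the list was 1.10, against 0.04 over all genes. The list was chosen with these differences known, so that its count is a description. Called members numbered 35 without shBEX2-2 replicate 1, 29 without shBEX2-2 replicate 2 and up to 57 without an shBEX2-1 array.

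The promoters of the 4 called members with the largest differences among those that hold the core of this element are shown to place the letters that such genes share. Each runs from 250 bases before the RefSeq start to 50 after it (GRCh38.p14, 5′ to 3′ on the gene's strand), and capitals mark the core, GAAA, any 2 bases and GAAA again, on either strand within the 250 bases.
IFI44L (chr1:78620198-78620497, plus strand): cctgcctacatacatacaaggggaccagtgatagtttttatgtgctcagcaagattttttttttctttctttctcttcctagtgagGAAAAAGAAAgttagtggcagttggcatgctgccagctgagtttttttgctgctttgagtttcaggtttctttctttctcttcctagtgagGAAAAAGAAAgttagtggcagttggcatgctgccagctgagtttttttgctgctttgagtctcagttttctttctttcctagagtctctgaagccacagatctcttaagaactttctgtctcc
IFI6 (chr1:27672143-27672442, minus strand): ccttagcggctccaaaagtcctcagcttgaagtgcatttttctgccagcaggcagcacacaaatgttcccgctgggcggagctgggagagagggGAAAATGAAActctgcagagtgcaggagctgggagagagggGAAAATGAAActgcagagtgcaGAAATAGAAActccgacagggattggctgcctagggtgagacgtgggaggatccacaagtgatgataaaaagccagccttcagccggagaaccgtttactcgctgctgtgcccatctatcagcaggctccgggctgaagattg
IFIT1 (chr10:89392373-89392672, plus strand): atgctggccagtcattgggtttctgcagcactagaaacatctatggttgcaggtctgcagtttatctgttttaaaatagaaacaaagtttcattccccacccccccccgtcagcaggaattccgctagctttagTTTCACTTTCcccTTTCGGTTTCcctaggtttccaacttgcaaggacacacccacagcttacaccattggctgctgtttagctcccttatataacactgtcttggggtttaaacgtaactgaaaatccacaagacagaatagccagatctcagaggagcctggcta
IFITM1 (chr11:313790-314089, plus strand): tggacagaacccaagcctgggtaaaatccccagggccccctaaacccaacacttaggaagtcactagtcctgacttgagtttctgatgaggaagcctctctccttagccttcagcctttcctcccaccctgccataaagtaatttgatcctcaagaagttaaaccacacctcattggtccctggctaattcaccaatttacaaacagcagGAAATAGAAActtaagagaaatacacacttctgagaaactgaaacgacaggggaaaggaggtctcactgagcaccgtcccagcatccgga
IFI44L held 2 copies, IFI6 held 3, IFIT1 held 2 on the opposite strand and IFITM1 held 1. These letters were present in 25 of the 48 interferon-list promoters matched in the RefSeq table (52.1%). They were present in 2.48% of the promoters of genes tested and in 3.07% of all 27305 promoters. The share was 5.78% of the 744 promoters of genes called higher in shBEX2-1 and 1.76% of the 968 promoters of genes called lower.

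RSAD2, which encodes the antiviral enzyme viperin, showed the widest gap of all. Its levels (probe on chromosome 2 of hg19, 7037200 to 7037259) were -0.90 and 0.09 in shBEX2-1 cells and -6.24 and -5.73 in shBEX2-2 cells, where it was not well above background. For such a gene the lower level was set to the dimmest signal that counted as well above background on each array, or to the probe's own signal where that was higher, and the fold is a lower bound. RSAD2 was at least 47.9-fold higher in shBEX2-1 (log2 difference 5.58, adjusted p = 0.000434 from limma), and the control arrays lay between, at -1.93 and -1.71 in shControl and -3.53 and -3.96 in shNontarget cells. IFI44L had levels of 0.20 and 1.45 against -3.66 and -3.18, an 18.9-fold difference (4.24, standard error 0.37, adjusted p = 0.00153 from limma). CMPK2, a mitochondrial nucleotide kinase and the neighbour of RSAD2 on the chromosome, had levels of -1.44 and -0.31 against -4.83 and -4.75 (3.91, standard error 0.32). In all 3 genes the shBEX2-2 arrays lay below every other array, and shBEX2-1 replicate 2 lay above every control array.

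The shBEX2-2 arrays were also the lowest for the dynamin-like antiviral proteins MX1 and MX2. MX1 had levels of 3.28 and 4.27 in shBEX2-1 and of 0.41 and 0.62 in shBEX2-2 cells, a 9.55-fold difference (3.26, standard error 0.27, adjusted p = 0.00144 from limma), and those of the control arrays were 2.16 to 3.16. MX2 differed by 3.66 (standard error 0.33, adjusted p = 0.00157 from limma). OASL, of the oligoadenylate synthetase family, had levels of -0.31 and 0.63 against -3.47 and -3.57 (3.68, standard error 0.27). IFIT1, which binds foreign RNA, had levels of 2.84 and 3.83 against 0.98 and 0.98, and IFITM1, which blocks virus entry, of 3.70 and 4.52 against 2.08 and 1.99. Their differences were 2.36 and 2.08, that of IFI6 was 2.73 and that of TRIM22 was 2.02, all 4 with an adjusted p of 0.00157 to 0.00512 from limma. All 10 of these genes passed the threshold with each array left out in turn.

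Within shBEX2-1 the replicates were not equal in this list. The mean level of the 61 genes was 1.04 on replicate 1 and 1.51 on replicate 2, while in shBEX2-2 cells it was -0.09 and -0.08. On the control arrays it was 0.91 and 1.00 in shControl and 0.63 and 0.44 in shNontarget cells. Relative to the shControl mean the median member was 0.25 higher in shBEX2-1 and 0.86 lower in shBEX2-2 cells (-0.86), and -0.37 in shNontarget cells. Both shBEX2-2 arrays lay below all 4 control arrays in 37 of the 61 genes and above all 4 in 2. Both shBEX2-1 arrays lay above all 4 in 22 and below all 4 in 0. These counts share the control arrays and are a description with no test. The same share over all genes tested was not counted, so how far the list departs from it is not known.

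**Figure D2:**
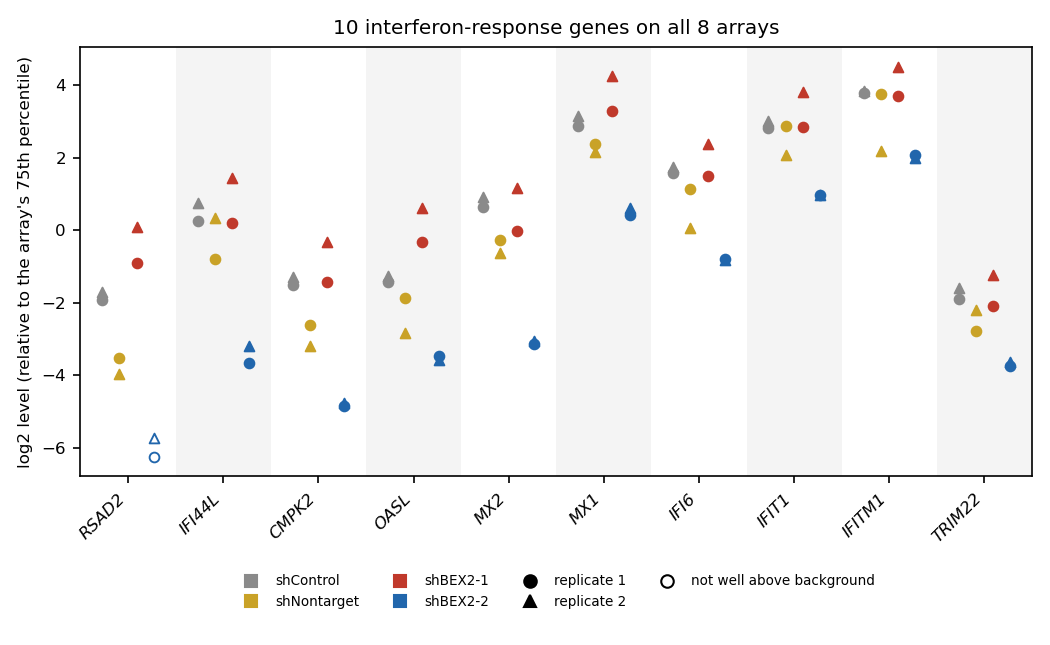
Normalized log2 levels of 10 interferon-response genes on the 8 arrays, with colour for the vector, circles for replicate 1, triangles for replicate 2 and open symbols for probes not well above background. The shBEX2-2 arrays (blue) are the lowest in each gene, and shBEX2-1 replicate 2 (red triangles) lies above replicate 1.

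Upstream of these genes the picture was mixed. Of 19 tested interferon ligands, receptors and signalling genes, 3 (15.8%) were called higher and 3 (15.8%) lower in shBEX2-1, against 6.51% and 6.58% of all genes. Their median difference was 0.01 and turned to -0.04 with scaling by the median or the quantiles. IFNB1, IFNL1, IFNL3 and IFNK were not tested, being below the filter on dim probes. STING1, the adaptor of cytosolic DNA sensing (TMEM173 on the array), had levels of 1.10 and 1.44 in shBEX2-1 and of -0.02 and -0.04 in shBEX2-2 cells (1.30, standard error 0.12, adjusted p = 0.00166 from limma). IFNE, an epithelial type I interferon, was higher by 0.74 (adjusted p = 0.00402) and TLR3, a sensor of double-stranded RNA, by 0.56 (adjusted p = 0.0201). Among receptor subunits IFNAR1 and IFNLR1 were lower, with IFNAR1 at -1.20 and -1.37 in shBEX2-1 against -0.58 and -0.53 in shBEX2-2 cells (-0.73, adjusted p = 0.00716) and IFNLR1, IL28RA on the array, differing by -0.35 (adjusted p = 0.0487). SOCS3, a feedback inhibitor of JAK-STAT signalling, differed by -0.57 (adjusted p = 0.0111). Of these 6 genes STING1 and IFNE kept the call without each array in turn, and the others lost it without shBEX2-2 arrays, with adjusted p of up to 0.299 from limma.

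Secreted signals differed in both directions. Of 36 tested chemokines and cytokines 8 (22.2%) were higher and 4 (11.1%) lower in shBEX2-1 cells, against 6.51% and 6.58% of all genes. CCL5, a chemokine for T cells, had levels of -4.13 and -3.67 in shBEX2-1 cells and was not well above background on any other array. At -7.06 and -7.26 in shBEX2-2 cells, it was at least 7.38-fold higher in shBEX2-1 (adjusted p = 0.00277 from limma). It passed the filter on dim probes through the shBEX2-1 arrays alone, so that the filter set its direction in this count. CXCL10 was well above background on 1 array of each subline, with levels of -4.93 and -3.78 against -5.95 and -7.47 (2.36, adjusted p = 0.0442), and lost the call without shBEX2-2 replicate 2 (adjusted p = 0.201) and after quantile normalization (adjusted p = 0.0541). IL11, a cytokine of the interleukin-6 family, ran the other way, with -2.22 and -1.89 in shBEX2-1 against 0.34 and 0.31 in shBEX2-2 cells, a 5.20-fold difference (-2.38, standard error 0.13, adjusted p = 0.000374). Its shControl levels were -1.29 and -1.39, between the sublines. CCL26, the chemokine eotaxin-3, differed by -2.19 (adjusted p = 0.00180). Both IL11 and CCL26 passed with each array left out.

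Of 21 acute-phase and complement genes 7 (33.3%) were called higher and 2 (9.52%) lower in shBEX2-1, against 6.51% and 6.58% of all genes, and 12 were not called. Among the higher ones, CFI passed the filter on dim probes through the shBEX2-1 arrays alone, so that the filter set its direction. CFI, a protease that inactivates complement fragments, was well above background in shBEX2-1 cells alone and at least 4.37-fold higher (adjusted p = 0.0103), a call lost without shBEX2-2 replicate 2 (adjusted p = 0.0575). C1R, of the classical pathway, was higher by 1.03, and C5, the start of the terminal pathway, differed by -1.15, a call lost without either shBEX2-2 array (adjusted p of up to 0.200).

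The cell cycle genes lay lower in shBEX2-1 cells. Genes of DNA synthesis are switched on by E2F factors as cells leave G1, and those of mitosis follow, so that the level of both lists in a culture moves with the share of cells in cycle. In bulk RNA a smaller share of cycling cells and less RNA per cell cannot be told apart. Of 43 S phase genes 24 were called lower in shBEX2-1 and none higher, of 54 G2/M genes 29 and none, and of 52 genes of the replication origin and fork 30 and none, while 6.58% of all genes were called lower. At an unadjusted p of 0.05 by limma, 1 S phase gene, 0 G2/M genes and 0 replication genes were higher. These lists share members, 17 of them between the S phase and the replication list, and without double counting 71 of 132 genes were called lower. The median differences were -0.37, -0.35 and -0.36. These calls rested on having both shBEX2-2 arrays, since without shBEX2-2 replicate 1 the 3 counts were 5, 1 and 0, and without shBEX2-2 replicate 2 they were 5, 1 and 1. The medians had the same sign under every scaling tried, from -0.42 to -0.34.

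The promoters of the 3 called S phase members with the largest differences among those that hold an E2F word are printed in the same way, with capitals for TTTGGCGC, TTTCCCGC, TTTGCCGC or TTTCGCGC on either strand.
CDCA7 (chr2:173354622-173354921, plus strand): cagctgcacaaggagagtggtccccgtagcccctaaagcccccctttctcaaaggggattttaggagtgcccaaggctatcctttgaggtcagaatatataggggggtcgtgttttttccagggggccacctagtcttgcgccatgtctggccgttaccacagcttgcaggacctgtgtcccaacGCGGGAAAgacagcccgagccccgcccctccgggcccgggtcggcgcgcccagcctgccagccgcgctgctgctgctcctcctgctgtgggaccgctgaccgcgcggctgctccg
TYMS (chr18:657403-657702, plus strand): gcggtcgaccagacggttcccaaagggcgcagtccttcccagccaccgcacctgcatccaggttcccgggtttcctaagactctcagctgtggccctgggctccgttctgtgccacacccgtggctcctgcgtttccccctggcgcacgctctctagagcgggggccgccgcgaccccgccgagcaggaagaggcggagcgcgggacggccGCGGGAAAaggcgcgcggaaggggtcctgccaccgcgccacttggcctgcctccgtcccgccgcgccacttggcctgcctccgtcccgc
MCM6 (chr2:135876394-135876693, minus strand): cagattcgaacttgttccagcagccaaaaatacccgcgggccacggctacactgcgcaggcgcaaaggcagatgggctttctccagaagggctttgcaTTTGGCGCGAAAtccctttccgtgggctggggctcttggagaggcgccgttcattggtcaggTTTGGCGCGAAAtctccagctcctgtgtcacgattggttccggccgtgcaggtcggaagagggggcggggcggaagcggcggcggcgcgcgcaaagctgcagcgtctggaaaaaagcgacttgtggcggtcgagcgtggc
In MCM6 the first word and the reverse complement of the last overlap, in 2 stretches. Such a word was present in 13 of 33 matched S phase promoters (39.4%), in 12 of 45 replication promoters (26.7%), in 2 of 45 G2/M promoters (4.44%), in 4.37% of the promoters of genes tested and in 2.79% of all promoters. The share was 4.17% for genes called higher in shBEX2-1 and 5.48% for genes called lower.

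E2F8, a late E2F factor that represses transcription, differed most among the S phase genes. Its levels were -1.54 and -1.55 in shBEX2-1 and -0.45 and -0.49 in shBEX2-2 cells, a 2.11-fold difference (-1.08, standard error 0.09, adjusted p = 0.00153 from limma), and the control arrays lay lower than both, from -2.93 to -2.34. RRM2, the small subunit of ribonucleotide reductase, had levels of -0.68 and -0.37 against 0.30 and 0.51 (-0.93, standard error 0.13, adjusted p = 0.00669). TYMS, which makes thymidylate, had levels of 2.31 and 2.42 against 3.09 and 3.20 (-0.77, standard error 0.08, adjusted p = 0.00276), with control arrays from 0.56 to 1.16. The sublines stood apart from the controls in the same direction and by different amounts.

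CDCA7, which serves in the recruitment of a chromatin remodeller, differed by -0.83 and its other probe by -0.31, and ATAD2, a bromodomain ATPase, by -0.79. Among the licensing and fork genes, MCM6 and MCM4 of the replicative helicase differed by -0.67 and -0.56, the polymerase subunit POLE2 by -0.68, and GMNN, the inhibitor of licensing, by -0.55, with adjusted p of 0.00347 to 0.00820 from limma. E2F8, TYMS, CDCA7 and ATAD2 passed with each array left out. RRM2, MCM6, MCM4, POLE2 and GMNN did not, each with an adjusted p of 0.0551 or more in 1 such fit at least.

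In the G2/M list GAS2L3, a cytoskeletal linker of the spindle midzone, had levels of -0.44 and -0.62 in shBEX2-1 and of 0.34 and 0.29 in shBEX2-2 cells (-0.84, standard error 0.10, adjusted p = 0.00365 from limma). AURKA, a kinase of the spindle poles, differed by -0.62 and CENPE, a kinetochore motor, by -0.61, and both lost the call without either shBEX2-2 array (adjusted p of up to 0.0975 and 0.0819). MKI67, the gene of the proliferation marker Ki67, had levels of 2.75 and 2.41 against 3.07 and 2.90 and was not called (-0.41, standard error 0.12, adjusted p = 0.0737), but was called with the mean of its probes (-0.62, adjusted p = 0.00451), since its other probes read -0.76 and -0.71.

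The control arrays lay below both sublines in most cell cycle genes. Relative to the shControl mean the median S phase gene was 1.33 higher in shBEX2-1 and 1.86 higher in shBEX2-2 cells, and the median G2/M gene 1.53 and 1.87 higher. Both arrays of shBEX2-1 were above all 4 control arrays in 39 of 43 S phase genes, and both arrays of shBEX2-2 in 41. These values share the control arrays and are given as a description. The share of all genes tested with both arrays of a subline above all 4 control arrays was not counted, so these counts have no background beside them.

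**Figure D3:**
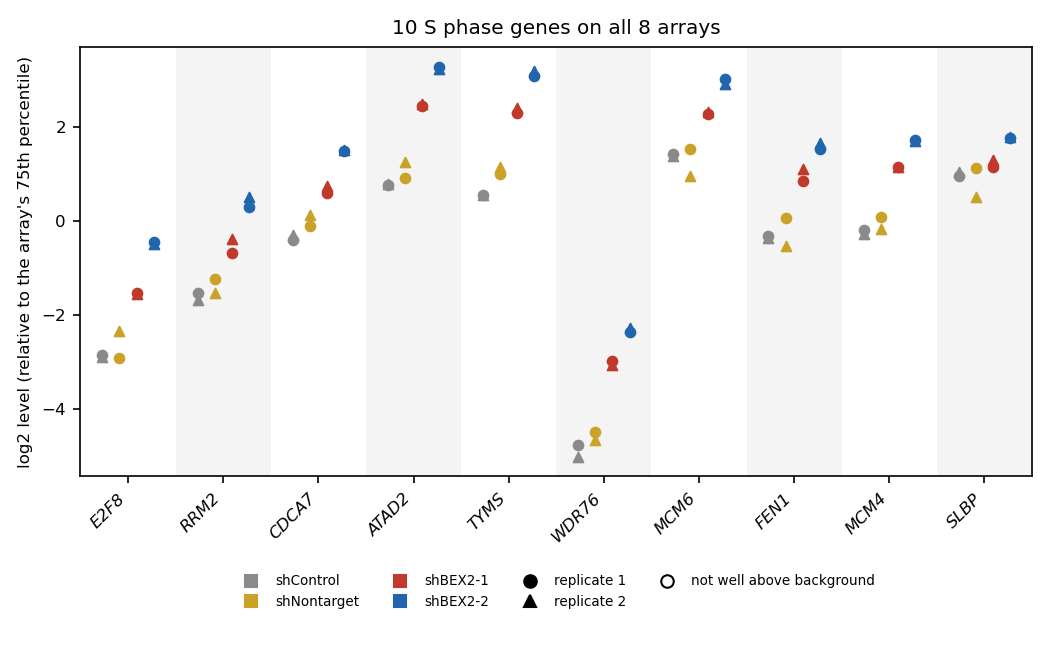
Normalized log2 levels of 10 S phase genes on the 8 arrays, with colours and symbols for vector and replicate. In each gene the shBEX2-2 arrays (blue) are the highest, followed by the shBEX2-1 arrays (red), with the control arrays below.

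Of 36 genes associated with quiescence 8 (22.2%) were called higher in shBEX2-1 and 2 (5.56%) lower, against 6.51% and 6.58% of all genes, and 26 were not called. The median was 0.16, and 0.073 without shBEX2-1 replicate 2, and at an unadjusted p of 0.05 the counts were 14 and 8. TXNIP, an inhibitor of thioredoxin and of glucose uptake, had levels of 2.74 and 2.76 against 1.38 and 1.44, a 2.53-fold difference (1.34, standard error 0.07, adjusted p = 0.000379 from limma). CDKN2B, the cyclin-dependent kinase inhibitor p15, differed by 1.02 (adjusted p = 0.00231). LRIG1, a brake on ERBB receptors and a stem cell marker, differed by -0.75 (adjusted p = 0.00821), a call lost without either shBEX2-2 array (adjusted p of up to 0.0992). Among 47 clustered histone genes 11 (23.4%) were higher and none lower, also at an unadjusted p of 0.05 by limma (15 and 0). Their median of 0.18 rested on single arrays, at -0.01 without shBEX2-1 replicate 1 and 0.36 without shBEX2-1 replicate 2. The largest difference was that of H2BC12 (HIST1H2BK on the array) with levels of 2.54 and 2.54 against 1.07 and 1.05 (1.48, adjusted p = 0.000374). Its other probe read 0.68, and histone genes are near-identical copies whose probes may read each other.

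The transcription factor ATF4 drives genes of amino acid synthesis and transport when amino acids run short or proteins misfold. Of 32 tested ATF4 genes 12 (37.5%, against 6.51% of all genes) were called higher in shBEX2-1 and 1 lower, with a median of 0.24, and 19 were not called. ASNS, asparagine synthetase, had levels of 4.38 and 4.05 in shBEX2-1 and of 2.89 and 2.88 in shBEX2-2 cells (1.34, standard error 0.11, adjusted p = 0.00144 from limma), and the control arrays were higher than both, from 5.20 to 5.93. NUPR1, a stress-induced chromatin protein, had levels of -1.61 and -1.68 against -3.38 and -3.12 (1.61, adjusted p = 0.00153), with control arrays from -0.52 to 0.86. In both genes shBEX2-2 cells departed further from the controls than shBEX2-1 cells. CHAC1, which degrades glutathione, and ALDH1L2, a mitochondrial folate enzyme, differed by 1.35 and 1.37, calls lost without shBEX2-2 replicate 2 (adjusted p = 0.0597 and 0.0755). In contrast the unfolded protein list held 1 called gene of 23, XBP1 at 0.37.

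Sterol synthesis genes were lower in shBEX2-1 in 8 of 25 cases (32%, against 6.58% of all genes) and higher in none, with a median of -0.30. Among them were the epoxidase SQLE (-0.53) and INSIG1 (-0.51), which retains the sterol sensor, with adjusted p of 0.00688 and 0.00921 from limma. Both lost the call without either shBEX2-2 array (adjusted p of up to 0.116 and 0.117). NRF2 targets counted 6 (26.1%) higher and 1 (4.35%) lower of 23, against 6.51% and 6.58% of all genes. The lower one was TXN, with 4.53 and 4.33 against 5.68 and 5.55 (-1.18, adjusted p = 0.00116), read by a probe that the array design places on chromosome 17, so that the value is uncertain.

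Of 76 nuclear-encoded genes of the respiratory chain 3 (3.95%, against 6.51% of all genes) were called higher and none lower, and 10 and 3 at an unadjusted p of 0.05 by limma. The called genes were NDUFA13 (0.35), NDUFA8 (0.31) and NDUFA5 (0.31), all lost without either shBEX2-2 array (adjusted p of up to 0.382), and the median was 0.08. Of 63 mitochondrial translation genes 2 (3.17%) were higher and 1 (1.59%) lower, against 6.51% and 6.58% of all genes, with a median of 0.02. TUFM, the mitochondrial elongation factor, had levels of 3.57 and 3.59 against 3.51 and 3.57, a difference of 0.04 (95% interval -0.13 to 0.21, adjusted p = 0.743 from limma). With scaling by the median it was -0.016 (adjusted p = 0.907).

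**Figure D4:**
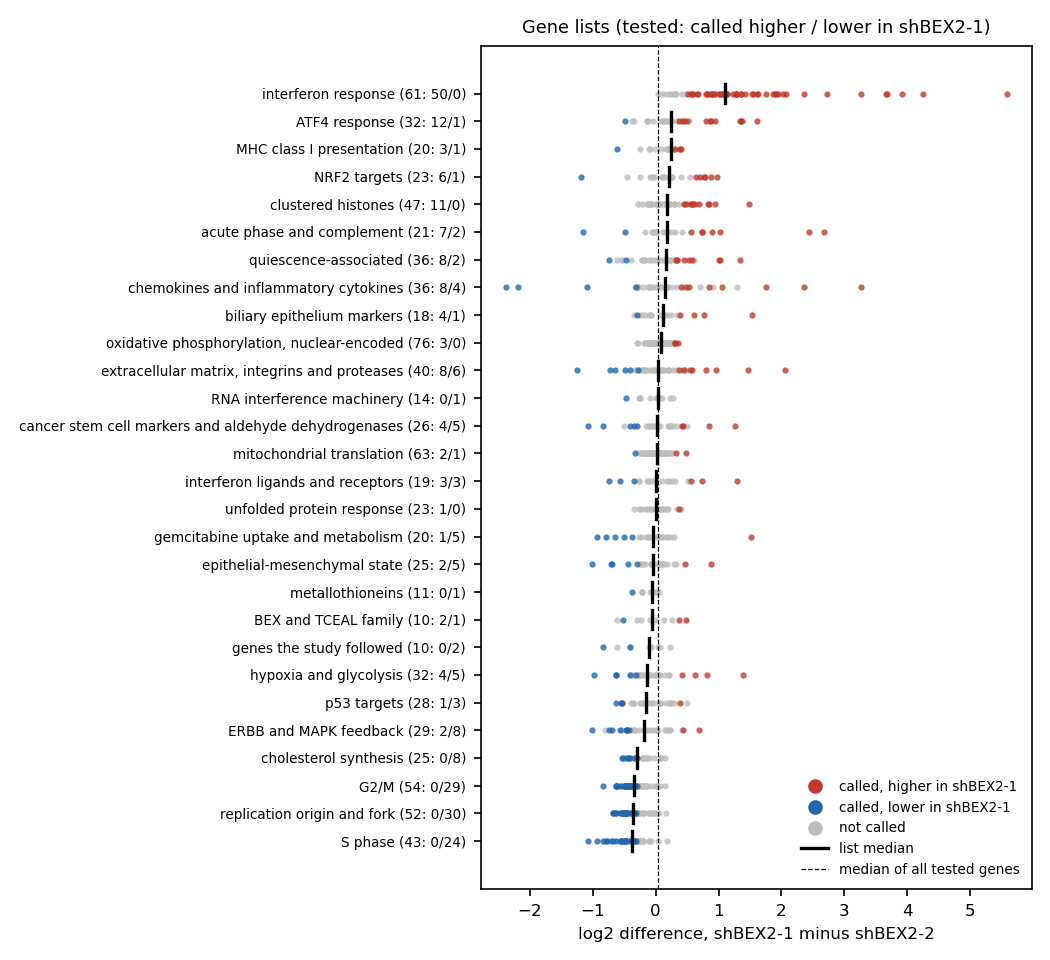
Log2 differences between the sublines (shBEX2-1 minus shBEX2-2) for every tested member of the gene lists with at least 10 tested members, 1 row per list, with a bar at the list's median. The interferon list has its median at 1.10, the 3 cell cycle lists lie at -0.37 to -0.35, and the lists of mitochondrial genes lie close to the dashed line, the median of all genes.

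Of the 10 genes that the study followed 2 (20%) were called, both lower in shBEX2-1, against 6.58% of all genes. CUL2, a ubiquitin ligase scaffold, had levels of -3.07 and -2.86 in shBEX2-1 and of -2.14 and -2.11 in shBEX2-2 cells (-0.84, standard error 0.13, adjusted p = 0.0105 from limma). CD274, which encodes PD-L1, had 0.16 and -0.06 against 0.49 and 0.41 (-0.40, standard error 0.10, adjusted p = 0.0452), above the control arrays at -1.39 to -0.54 in both sublines. The other CD274 probe read -0.20. Both calls were lost without shBEX2-2 arrays, CUL2 with an adjusted p of up to 0.107 and CD274 of up to 0.251, and CD274 lost it also without shBEX2-1 replicate 2 (adjusted p = 0.0532) and after quantile normalization (adjusted p = 0.0522). USF2 differed by 0.23 (95% interval 0.06 to 0.41, adjusted p = 0.0863) and was not called, and its other probe read 0.56. HSPD1 (-0.07), IVD (0.06), PECR (-0.09) and FEM1B (-0.10, but 0.0085 after normexp correction) were not called, with adjusted p of 0.569 to 0.647. The RNA interference machinery had 1 called gene of 14 (7.14%, near the 6.58% called lower over all genes). This was AGO2 at -0.46 (adjusted p = 0.0134 from limma), a call lost without either shBEX2-2 array.

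Cancer stem cell markers and aldehyde dehydrogenases were split, with 4 (15.4%) higher and 5 (19.2%) lower of 26, against 6.51% and 6.58% of all genes. BMI1, a Polycomb protein, had levels of -2.16 and -2.04 in shBEX2-1 and of -1.05 and -0.99 in shBEX2-2 cells (-1.08, standard error 0.11, adjusted p = 0.00205 from limma), the latter near the control arrays at -0.99 to -0.59. A second BMI1 probe read -1.03. PROM1, the stem cell antigen CD133, differed by -0.83 (adjusted p = 0.00944), a call lost without either shBEX2-2 array (adjusted p of up to 0.0994). NANOG was higher by 1.27 (adjusted p = 0.0344), but its probe lies on chromosome 15 in the array design, where a retrocopy of NANOG lies. The probe was not well above background in shBEX2-2 cells and passed the filter through the shBEX2-1 arrays alone, which set its direction in this count. The call was lost without 3 of the 4 arrays (adjusted p of up to 0.180). Among 20 genes of gemcitabine handling 1 (5%) was higher and 5 (25%) lower. SAMHD1, a dNTP hydrolase that is also an interferon target, was higher by 1.52 (adjusted p = 0.00236), and the nucleoside transporter SLC29A1 differed by -0.79 (adjusted p = 0.00207). All values of SLC29A1 in shBEX2-1 (0.73 and 0.68) and shBEX2-2 (1.48 or more) were above those of the control arrays.

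The matrix, the stroma and the surface differed gene by gene. Of 40 matrix, integrin and protease genes 8 (20%) were higher and 6 (15%) lower, against 6.51% and 6.58% of all genes. Among the higher ones, ITGB3 and MMP10 passed the filter on dim probes through the shBEX2-1 arrays alone, so that the filter set their direction. The collagen COL6A1 had levels of 2.45 and 2.32 in shBEX2-1 against 3.58 and 3.69 in shBEX2-2 cells (-1.25, adjusted p = 0.000698 from limma). LUM, which encodes the collagen-binding proteoglycan lumican, had 0.29 and 0.41 against -1.73 and -1.94 (2.19, standard error 0.11, adjusted p = 0.000374), and DCN, its relative decorin, was well above background in shBEX2-1 alone and at least 4.91-fold higher (adjusted p = 0.00821). Both are on the fibroblast list, of which 3 genes of the 6 tested were higher and none lower. DCN passed the filter on dim probes through the shBEX2-1 arrays alone, so that its direction in this count was set by the filter. The summed level of that list, given above, was also higher in shBEX2-1 cells, and the part of such cells in these values was not tested. CFTR, the chloride channel of bile ducts, had 0.41 and 0.57 against -1.07 and -1.02 (1.53, standard error 0.10, adjusted p = 0.000584). Its shControl levels of 0.66 and 0.80 were near shBEX2-1 and its shNontarget levels of -1.39 and -1.22 near shBEX2-2, so that CFTR split the control vectors as it split the sublines. CSF1R, a receptor for macrophage growth factors, had -3.59 and -3.82 against -1.85 and -1.84 (-1.86, adjusted p = 0.00104).

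Signalling, stress and antigen presentation lists held calls in both directions. Of 29 genes of ERBB and MAPK feedback 2 (6.90%) were higher and 8 (27.6%) lower in shBEX2-1, against 6.51% and 6.58% of all genes. Among them DUSP5, a phosphatase of ERK, had -1.46 and -1.27 against -0.36 and -0.35 (-1.01, adjusted p = 0.00244 from limma). Of 32 hypoxia and glycolysis genes 4 (12.5%) were higher and 5 (15.6%) lower. ANGPTL4, a lipase inhibitor, had -2.79 and -2.98 against -4.30 and -4.26 (1.39, adjusted p = 0.00407), while NDRG1, another hypoxia target, had -0.06 and 0.09 against 0.91 and 1.08 (-0.98, adjusted p = 0.00240), so that members of this list did not move together. Of 25 genes of epithelial-mesenchymal state 2 (8%) were higher and 5 (20%) lower. Among them the tight junction gene CLDN3 had -0.05 and -0.14 against 0.96 and 0.86 (95% interval of the difference -1.21 to -0.80, adjusted p = 0.00153 from limma). These 4 genes kept the call with each array left out.

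Of 20 genes of MHC class I presentation 3 (15%) were higher and 1 (5%) lower, against 6.51% and 6.58% of all genes. The proteasome activator genes PSME1 and PSME2 and the immunoproteasome gene PSMB10 differed by 0.40, 0.39 and 0.30, and TAP2, a subunit of the peptide transporter, by -0.61. Of 28 p53 targets 1 was higher, TP53I3 at 0.40, and 3 were lower, AEN at -0.63, TNFRSF10B at -0.55 and MDM2 at -0.53. Of 11 metallothioneins MT1F alone (9.09%) was called, at -0.38. All of these calls were lost without either shBEX2-2 array, with adjusted p of up to 0.0726 for TAP2 and up to 0.317 for PSMB10 from limma.

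Other genes with the largest differences upward were read at low signal. FDCSP (C4orf7 on the array) was well above background in shBEX2-1 cells alone, with levels of -4.13 and -3.96, and was at least 7.55-fold higher (adjusted p = 0.00261 from limma). CCDC85A likewise was at least 6.35-fold higher (adjusted p = 0.00376), and its other probe read 2.86 on the log2 scale. TCIM (C8orf4 on the array), a regulator of Wnt signalling, had -3.61 and -3.69 in shBEX2-1 and was not well above background in shBEX2-2 cells, at least 6.88-fold higher in shBEX2-1 (adjusted p = 0.00285), while all control arrays were at -3.52 or higher. For TCIM the shBEX2-2 arrays stood apart from all others, and for FDCSP and CCDC85A the shBEX2-1 arrays did.

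Downward, the largest difference was that of ABTB3 (BTBD11 on the array), with -6.33 and -5.28 in shBEX2-1, not well above background, and -2.64 and -2.71 in shBEX2-2 cells, at least 7.51-fold apart (adjusted p = 0.00291 from limma). INHBB, which encodes the beta B chain of activin and inhibin, was well above background on all arrays, with -1.91 and -1.64 against 0.79 and 0.52 and control arrays from 0.28 to 0.66 (-2.43, standard error 0.13, adjusted p = 0.000379). In both genes shBEX2-2 cells were nearer to shControl cells and shBEX2-1 cells stood apart. CLDN18, a claudin of gastric and lung epithelium, was the reverse, well above background in shBEX2-2 cells alone and at least 3.66-fold apart (adjusted p = 0.00521). The lipid raft adaptor PAG1 differed by -2.29 (its other probe by -1.27) and the sortilin-family receptor SORCS3 by -2.23, the latter call lost without shBEX2-2 replicate 2 (adjusted p = 0.0561). The sodium-proton exchanger SLC9A2, the LIM protein CRIP2, the scavenger receptor MARCO and the tetraspanin-like TM4SF5 were not well above background in shBEX2-1 cells and were at least 2.89-fold, 3.72-fold, 3.15-fold and 2.90-fold lower there. The normexp correction added 50 to every intensity, which by itself narrows differences between dim readings. After normexp correction CLDN18, SLC9A2, CRIP2, MARCO and TM4SF5 were no longer called (differences of -0.18 to -0.02), and they also lost the call without an shBEX2-2 array, with adjusted p of up to 0.0871 to 0.123.

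**Figure D5:**
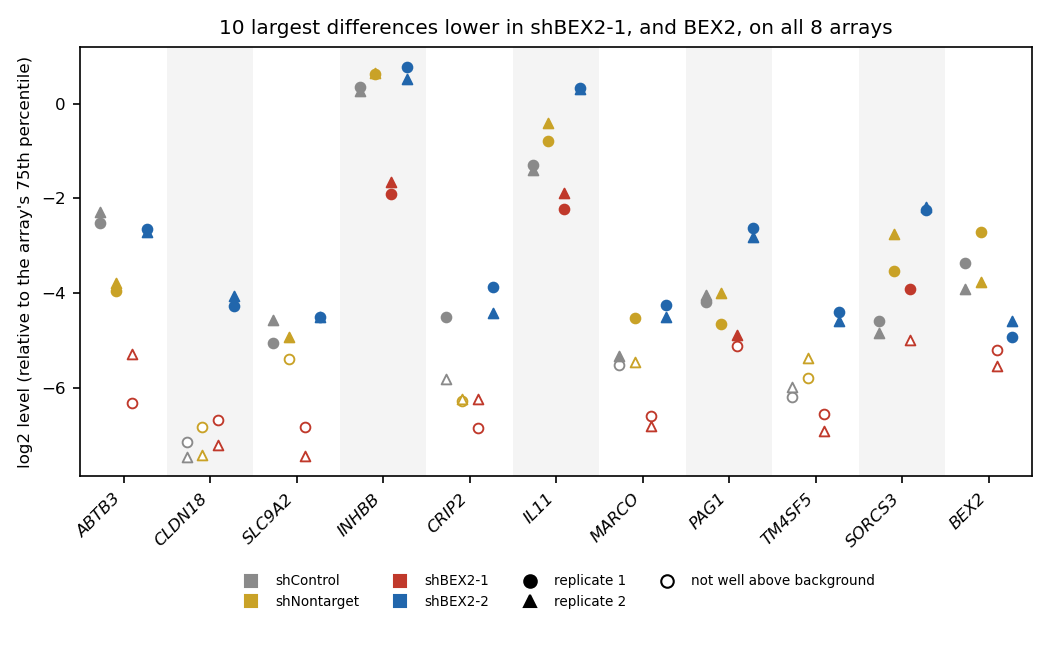
Normalized log2 levels on the 8 arrays of the 10 genes with the largest differences lower in shBEX2-1 and of BEX2, with open symbols where the probe was not well above background. INHBB and IL11 are read well above background on all arrays, while most other genes shown, BEX2 included, are at background in shBEX2-1 cells (red).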

How the data were processed

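RNA from HuCCT1 cells had been labelled with Cy3 and hybridized to single-colour Agilent arrays, 2 per vector. The deposited intensity values are the processed signals of Agilent Feature Extraction 10.7.3.1, per the submitters' processing notes, with background already subtracted by the authors' scanner software. The series' deposited value table of processed signals served as an alternative, after the same log2 and percentile scaling. Before that scaling its values departed from the processed signals of the scanner files by at most 0.497%. No array of another series was present.

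For each array, log2 of the processed signal minus its 75th percentile over non-control spots was taken. A probe entered where at least 2 of the 4 knockdown arrays read it well above background, and each gene name was represented by its brightest probe. Of the called genes, 91 were well above background on neither array of 1 subline. These passed the filter through the other subline alone, so that the filter set their direction in the list counts. Of 34809 names, 20077 were paired with a RefSeq symbol. The sublines were compared with limma 3.58.1 (lmFit and eBayes with a variance trend) in R 4.3.3 on the 4 arrays, with Benjamini-Hochberg adjustment over 20790 genes and a threshold of 0.05. The fit had 2 residual and 5.17 prior degrees of freedom, so that few arrays set the precision. The script was tested on simulated data. Tables were handled in Python 3.11.15. The rank product that the study's methods used for arrays was not repeated.

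Named genes were BEX2 and the genes the study followed, the 10 called genes with the largest non-overlapping difference in each direction, and up to 4 called members of each gene list (up to 10 for the interferon, S phase and replication lists). Some genes that this rule names are not reported here. The members and lists were chosen with earlier results of these data known. Alternatives covered the scaling, the background correction (normexp with an offset of 50), the filter, the probe rule, the variance model, the samples, the replicate block and single arrays left out.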

Additional observations from a re-analysis of the deposited data

How the results depend on the processing

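The count of 2722 genes stayed within 1.5 times under median or quantile scaling, the value table, the filters, the mean of probes, a robust variance prior and the unadjusted form of the methods' t-test (2157 to 4051). It was 4373 after normexp correction, 770 without a variance trend, 2 with all 8 arrays, 2 with the methods' t-test after adjustment (a test the methods do not name for arrays), 413 with a minimum difference of 1, and 383 to 5568 with an array left out. For interferon genes higher (50), S phase (24), G2/M (29) and replication genes lower (30), the counts were 27, 7, 3 and 3 without a variance trend, 1, 0, 0 and 0 with all 8 arrays, and 0 each with the adjusted t-test. The interferon count was 33 with the unadjusted t-test and 36 with a minimum difference of 1, where the other 3 were 1, 0 and 0. With an array left out the ranges were 29 to 57, 5 to 30, 1 to 37 and 0 to 34.

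The replicate numbers, shared by only 2 pairs of samples whose deviations correlated at 0.22, were not taken to pair them. With the replicate block, 6221 genes were called (3422 higher, 2799 lower), the list counts were 58, 36, 43 and 40, all 132 called named genes kept the call, and MKI67 (adjusted p = 0.000105) and USF2 (0.0143) were added. BEX2 stayed uncalled there (adjusted p = 0.191).

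BEX2 turned to 0.12 and FEM1B to 0.0085 after normexp correction, and TUFM to -0.016 with median scaling, none of them called. BEX2 ranged from -0.78 to -0.45 with an array left out, and had no value where all 4 arrays had to be well above background. Of the 132 called named genes, 52 kept the call without each array in turn, while 74 lost it without shBEX2-2 replicate 1 and 77 without shBEX2-2 replicate 2. A fit of 6 arrays without shNontarget, chosen after seeing the data, called 2971. The causes were not tested. Dim probes, such as that of BEX2, limit what can be read.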

Other observations

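These genes were chosen after their values were seen, and their values are a description. Of 7 tested genes of the protocadherin beta cluster, 6 (85.7%) were called higher in shBEX2-1 cells and none lower, with a median difference of 1.97. The cluster encodes neighbouring cell adhesion proteins on 1 chromosome arm. Over all genes tested, 6.51% were called higher and 6.58% lower. PCDHB10 and PCDHB15 passed the filter on dim probes through the shBEX2-1 arrays alone. PCDHB9 differed by 2.29, PCDHB11 by 2.04 and PCDHB14 by 1.97. PCDHB15 was 5.56-fold higher, against a signal in shBEX2-2 cells that was not well above background. These genes are similar copies whose probes may read each other, so that single values are uncertain. Of 28 keratins 6 (21.4%) were higher and 2 (7.14%) lower, with a median of 0.11. The largest upward differences were KRT14 at 1.61 and KRT17 at 1.51. FLG, which encodes filaggrin, differed by 2.92 (adjusted p = 0.000996 from limma). IDO1, which degrades tryptophan and is induced by interferon, differed by 2.68 (adjusted p = 0.00157).

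Among growth factor genes, WNT5A was higher by 1.69. FGF1 was 3.43-fold lower in shBEX2-1 cells, where it was not well above background. The receptor FGFR1 differed by -1.12 and the activin antagonist FST by -1.36. CEACAM6 and CEACAM7, adhesion molecules of carcinomas, differed by -1.70 and -1.43. Of 401 zinc finger genes with the prefix ZNF, 39 were called higher and 4 lower, with a median of 0.14. This is 9.73% and 0.998%, against 6.51% and 6.58% of all genes. Along the genome, the medians of the 248 windows of 10 Mb with at least 30 genes ranged from -0.22 to 0.28.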
